A study of Saccharomyces cerevisiae BY4743 with 24 samples.

Results

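Pool 2 of a polysome gradient, whose library names carry "di", is the pool under the disome peak by its name, which no value here tests, and where mRNAs bound by a pair of ribosomes sediment. It was compared between Saccharomyces cerevisiae growing at 30 °C and the same strain after 30 min at 42 °C. The members are the 6 libraries with pool 2 in their title, 3 at each temperature, of 24 libraries in the series. All 6 came from BY4743, a laboratory diploid, grown in synthetic medium with 2% raffinose and a trace of glucose to mid-log phase. The 30 °C cultures were sampled there, and the 42 °C cultures were first filtered and resuspended in medium at 42 °C, so each difference below holds both the temperature and that handling. Cycloheximide was present from harvest, 25 fractions of a 10 to 50% sucrose gradient were joined by absorbance, and total RNA was sequenced without removal of ribosomal RNA (rRNA). Libraries of a temperature carry the numbers 1 to 3, and no label says whether these were separate cultures.

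A ribosome loaded on an mRNA adds a fixed mass, so sucrose gradients sort mRNAs by how many ribosomes they carry. Monosomes, disomes and trisomes form separate peaks ahead of the heavy polysomes, and a short reading frame holds few ribosomes even when it is well translated. Heat shock in yeast is known for a fast transcriptional switch, in which the heat shock factor Hsf1 and the general stress factors Msn2 and Msn4 turn on chaperone and protection genes while the genes for ribosomes are shut down, and for a transient fall in translation.

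Gene levels are given on 2 scales. The mRNA scale is TPM (a measure of transcript share per length) rescaled so that the mRNAs of a library sum to 1000000, called mRNA TPM. The 25S scale divides TPM by that of the 25S rRNA of the large ribosomal subunit in the same library. Differences are log2 of 42 °C over 30 °C with a pseudocount of 1 and their standard error (SE) from limma, a linear model fitted to all 2710 mRNAs with at least 10 mRNA TPM in 3 or more of the 6 libraries, and p-values are 2-sided and Benjamini-Hochberg adjusted over all of them. Rose and fell mean an adjusted p under 0.05 on the mRNA scale unless the 25S scale is named. Of 5959 mRNAs, 3249 were not tested. Of the tested ones, 586 reached 10 mRNA TPM in all 3 libraries at 30 °C but not in all 3 at 42 °C. The reverse held for 707. RPL14A, YEF3, CYC1, GCN4 and PAB1 are among the 586, and HSP26, SSA4, RPN4, HSF1, LSO1 and CYC7 are among the 707. Others named below belong to either group too. The p-values of such mRNAs are to be read with that selection.

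Ribosomal RNA made up 96.15, 96.4 and 96.5% of TPM at 30 °C and 98.6, 98.3 and 97.9% at 42 °C. Read depth is unknown, because TPM does not keep it. Per library 5090 to 5272 mRNAs were above 0 at 30 °C and 4753 to 5037 at 42 °C. Correlations of log2 levels over the tested mRNAs were 0.938 to 0.950 between replicates at 30 °C, 0.832 to 0.856 at 42 °C and 0.26 to 0.43 between temperatures. The strain's deleted URA3 was listed at 0 in all 6 libraries, while LEU2, also deleted in BY4743, stood at 42.5, 4.15 and 0 mRNA TPM in the 30 °C libraries 1, 2 and 3 and at 23.05, 9.78 and 0 at 42 °C. HIS3, the third marker deleted in BY4743, was present in all 6 libraries, at 66.4, 61.3 and 35.8 at 30 °C and at 147.6, 74.0 and 32.3 at 42 °C; its allele in this strain is known to lack only an inner part of the gene, so these reads do not test the label. The 18 listed haploid-specific genes, which a diploid keeps silent, summed to 6.08 to 16.4 mRNA TPM in the 30 °C libraries and to 631 to 1252 at 42 °C. Most of the 42 °C sum came from the short pheromone genes MFA1, at 787, 0 and 0, and MFA2, at 0, 1163 and 569, both listed at 0 at 30 °C. RME1, a repressor of meiosis, stood at 1.78, 7.31 and 10.1 against 68.9, 50.4 and 33.2. The part of these signals in the results was not tested. Spike-in RNA summed to 37.6, 461 and 345 TPM at 30 °C and to 44.02, 383 and 370 at 42 °C, so both number 1 libraries stand apart in it.

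Less mRNA accompanied the rRNA of the disome pool after heat, and the difference lay mostly in the mRNAs for ribosomal proteins. For 1000 TPM of 25S rRNA the libraries held 117.6, 114 and 98.4 TPM of mRNA at 30 °C and 31.6, 38.2 and 47.5 at 42 °C. The 2 groups did not overlap, and the log2 difference was −1.51, against a pooled SD of 0.23 (n = 3 per temperature). Exact permutation gave a 2-sided p = 0.1, the smallest that 3 against 3 libraries allow. Of that mRNA, the messages of cytoplasmic ribosomal proteins were 75.8, 69.9 and 62.3 TPM per 1000 TPM of 25S rRNA at 30 °C and 1.05, 0.73 and 2.14 at 42 °C, 58.6-fold less as geometric means (exact permutation p = 0.1). All other mRNAs together were 41.8, 44.3 and 36.1 at 30 °C and 30.6, 37.4 and 45.3 at 42 °C. These ranges overlap, and the log2 difference of −0.12 (pooled SD 0.23, exact permutation p = 0.7) was smaller than the spread between replicates. Over 3 such ratios the Benjamini-Hochberg values were 0.15, 0.15 and 0.7. Within the other mRNAs, the chaperone messages went from 0.56, 0.52 and 0.42 to 2.51, 3.99 and 4.67 TPM per 1000 TPM of 25S rRNA and the general stress, trehalose and glycogen messages from 1.51, 1.99 and 1.51 to 6.95, 10.3 and 9.53. What remained after these classes went from 39.7, 41.8 and 34.2 to 21.1, 23.2 and 31.1, again without overlap. Per TPM of spike-in RNA, 25S rRNA was 8178, 655 and 973 in the 30 °C libraries 1 to 3 and 9158, 1076 and 1126 at 42 °C, and mRNA was 962, 74.8 and 95.8 against 290, 41.1 and 53.5. Compared as groups, both spike-in ratios overlapped between temperatures (exact permutation p = 0.5 for 25S rRNA and p = 0.5 for mRNA). Only when matched by replicate number was 25S rRNA higher and mRNA lower at 42 °C each time. That libraries of one number share a source was not tested, and the amount of lysate loaded per gradient was not fixed.

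**Figure D1:**
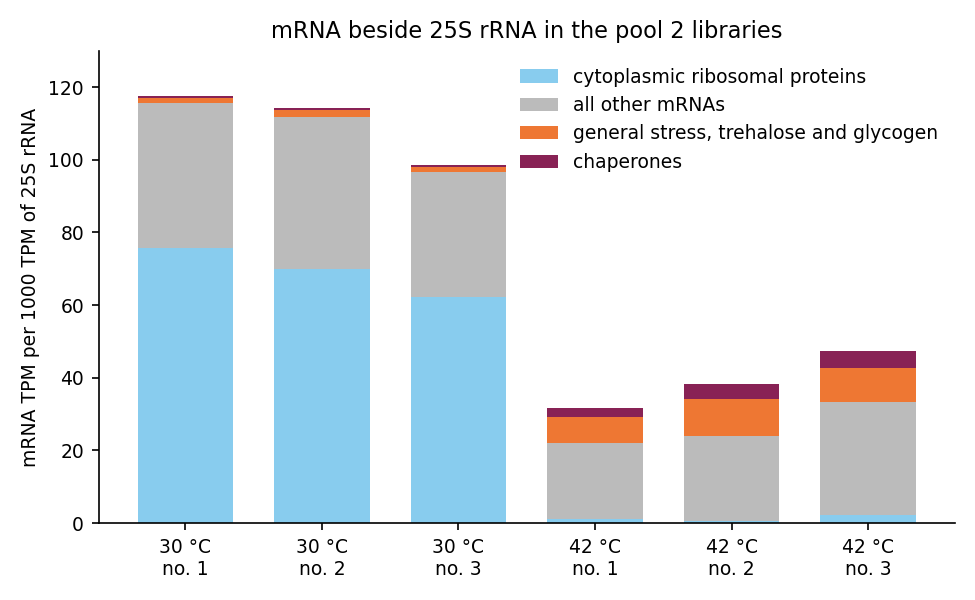
mRNA TPM per 1000 TPM of 25S rRNA in each pool 2 library (vertical axis), stacked by class, for library numbers 1 to 3 at 30 °C and 42 °C. The ribosomal protein class goes from 62.3 to 75.8 at 30 °C to between 0.73 and 2.14 at 42 °C, and the stress and chaperone classes grow.

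Single mRNAs moved in both directions, and the balance depended on the scale. On the mRNA scale 1057 of 2710 tested mRNAs rose (39%) and 566 fell (20.9%), with a median difference of 0.52. On the 25S scale 344 rose (12.7%) and 1183 fell (43.7%), with a median of −0.91. The 344 that rose on the 25S scale all rose on the mRNA scale too, the 566 that fell on the mRNA scale all fell on the 25S scale, and the other 713 that rose on the mRNA scale did not pass on the 25S scale. Centring each library on its median mRNA gave 858 risen and 728 fallen, TPM as deposited gave 521 and 1088, and scaling to the mRNAs other than those of ribosomal proteins gave 411 and 1171. Ribosomal protein mRNAs held a mean of 63.0% of the mRNA sum at 30 °C and 3.25% at 42 °C. A rise on the mRNA scale is a larger share of that sum, and not by itself a larger amount. A single mRNA said below to rise on both scales passed 5% on each. Where no 25S result is given for a single mRNA, that is not a statement that it missed on that scale. Differences are to be read against the medians of 0.52 and −0.91. Counts of a list are to be read against the shares of 39% risen and 20.9% fallen, and 12.7% and 43.7% on the 25S scale. Of 96 mRNAs named here that passed 5% on the mRNA scale, 12 lost the call with 1 or another library left out, at limma adjusted p-values up to 0.150: BAT2, COX26, COX5A, DPS1, EAP1, GRX4, HAP4, MGE1, MRA1, RPL36B, RRN9 and RRN10.

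**Figure D2:**
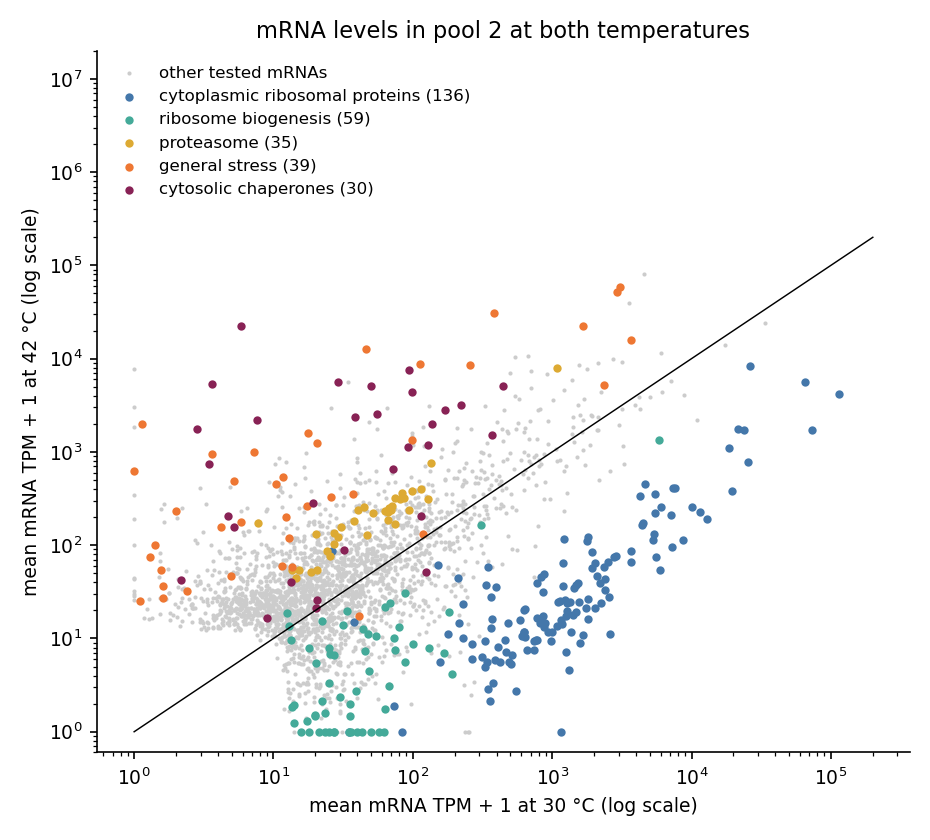
Mean mRNA TPM plus 1 in pool 2 at 30 °C (horizontal) and 42 °C (vertical), both log scales, for the 2710 tested mRNAs, with the number of tested members of each coloured list in brackets and the diagonal marking equal levels. The ribosomal protein mRNAs lie below the diagonal apart from RPL15B, and the chaperone and general stress mRNAs lie mostly above it.

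The most abundant mRNAs of the pool differed between temperatures. Of the 12 most abundant at 30 °C, 10 encoded ribosomal proteins, and together the 12 made up 45.1% of mRNA TPM. At 42 °C the top 12 included 0 ribosomal protein mRNAs and summed to 38.4%, and 2 mRNAs, COX9 and ATP19, were in both sets. Genes spanning 300 nt or less, introns included, made up 7 of the 12 at 30 °C and 9 of the 12 at 42 °C. Such genes held 47.8 and 55.4% of mRNA TPM at 30 and 42 °C, and 20.5 and 53.9% without ribosomal protein mRNAs. A short mRNA from a gene with an intron can fall outside this class. No change in the share of short mRNAs is therefore read from these values. TPM of short transcripts depends strongly on the effective length used, so these ranks and shares do too. By mean level, the head of the list at 30 °C was RPS29B (small subunit), RPL39 and RPL38 (large subunit). At 42 °C it was CUP1-2 (copper metallothionein), STF2 and HSP12 (stress proteins that protect membranes and dried cells), the uncharacterised YBR085C-A and DDR2.

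Ribosomal protein mRNAs fell together. Of 136 tested members, 134 fell on the mRNA scale and 135 on the 25S scale, with median differences of −6.08 and −7.40, beside 0.52 and −0.91 over all tested mRNAs. Their summed share of mRNA TPM was 64.5, 61.2 and 63.3% at 30 °C and 3.32, 1.91 and 4.51% at 42 °C. RPS29B, which encodes a zinc-binding protein of the small subunit, stood at 100840, 116550 and 122930 mRNA TPM at 30 °C and at 3148, 1745 and 7686 at 42 °C, a difference of −5.02 ± 0.54 (SE, limma adjusted p = 0.000465). RPL39 went from 82818, 65127 and 70401 to 1416, 1047 and 2733 mRNA TPM. RPL38 went from 50014, 62854 and 81940 to 7554, 2560 and 6605. In each of the 3 the groups lie far apart.

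The largest falls by the naming rule were all ribosomal protein genes: RPL14A, RPS29A, RPL27B, RPS21B, RPL26B, RPL31B, RPL36B and RPL33B. RPL14A stood at 1186, 1191 and 1106 mRNA TPM at 30 °C and at 0 in each 42 °C library (limma adjusted p = 6.22e-06), which gives no fold. The other 7 were listed at 0 in 1 or 2 of the 42 °C libraries.

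Most yeast ribosomal proteins come from 2 near-identical genes whose reads the quantification had to divide, so the 59 pairs were also summed, a step added after the values were seen. In 59 of 59 pairs the 3 sums at 42 °C lay below the 3 at 30 °C, with a median difference of −5.61 and a range of −2.28 to −8.08. RPL14A and RPL14B together went from 1458, 1418 and 1238 mRNA TPM to 28.3, 41.8 and 61.4, a difference of −5.00. The pairs of the other genes with the largest falls stood at −5.09 (RPS29), −8.08 (RPL27), −7.29 (RPS21), −6.50 (RPL26), −6.42 (RPL31), −5.20 (RPL36) and −5.73 (RPL33). RPS30A, the least changed of the abundant ones, went from 30678, 24074 and 24696 mRNA TPM to 7967, 5890 and 11085, a fall by 1.71 ± 0.30 on the log2 scale (SE, limma adjusted p = 0.00333), while its paralog RPS30B fell by 4.09. RPL15B was the single member that rose, from 21.4, 24.5 and 29.4 to 111, 90.4 and 57.5 mRNA TPM (1.70 ± 0.32, limma adjusted p = 0.00416), and on the 25S scale its difference was 0.23 with an adjusted p of 0.541. The sum of RPL15A and RPL15B went from 2586, 2271 and 2414 to 141, 118 and 95.3.

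**Figure D3:**
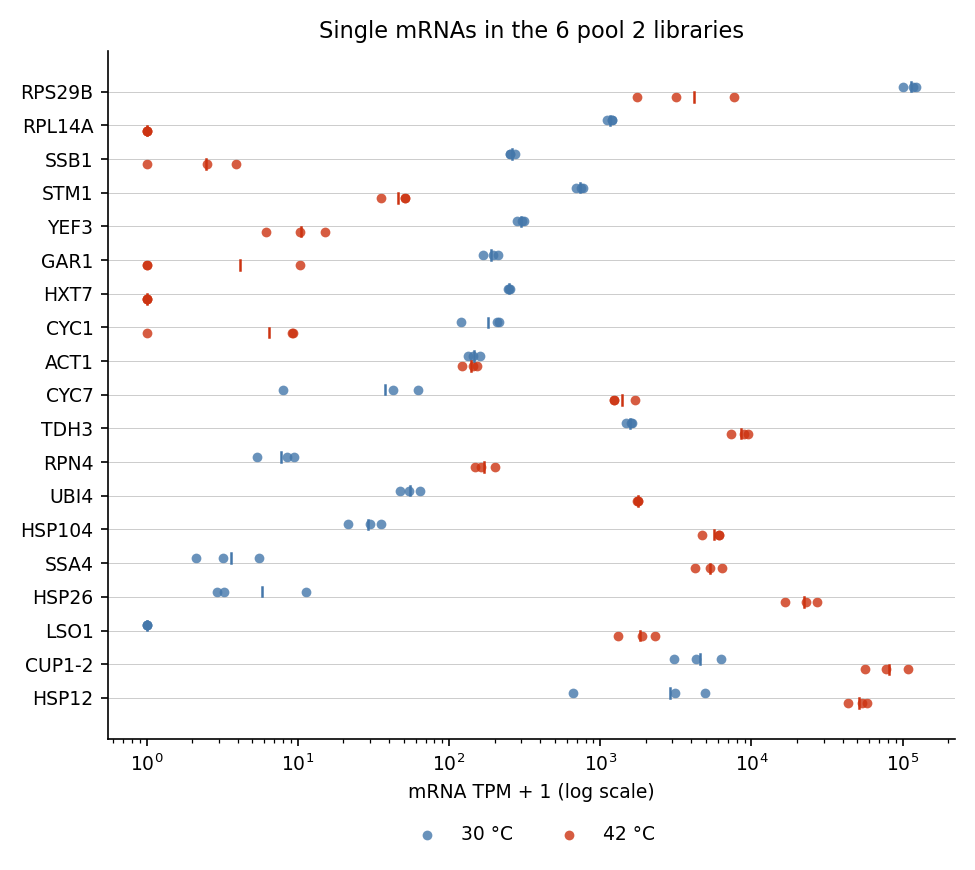
mRNA TPM plus 1 (horizontal, log scale) of 19 single mRNAs in the 6 pool 2 libraries, blue for 30 °C and red for 42 °C, 1 point per library and a bar at the mean. A point at 1 is a library in which the mRNA is listed at 0, as for LSO1 at 30 °C and RPL14A and HXT7 at 42 °C, and the colours overlap for ACT1 alone.

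The genes that build and run ribosomes fell with them. Of 59 tested ribosome biogenesis mRNAs (of 113 in the list), 50 fell and 0 rose on the mRNA scale and 58 fell on the 25S scale, with medians of −3.81 and −4.69. GAR1, a protein of the particles that convert uridines in rRNA to pseudouridine, went from 167, 209 and 193 mRNA TPM to 9.41, 0 and 0. NOP15, needed for large subunit assembly, went from 29.3, 78.5 and 74.6 to 0 in each 42 °C library. At 42 °C 32 of the 113 members were listed at 0 in all 3 libraries, beside 556 of all 5959 mRNAs. Among RNA polymerase I and III subunits and factors, 7 of 11 tested fell and 2, RRN9 and RRN10, rose by less than 1.1 on the log2 scale. On the 25S scale these 2 stood at −0.49 and −0.42 and 0 of 11 rose.

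Translation factors fell in large part. Of 26 tested initiation factors, 17 fell and 2 rose on the mRNA scale, and 23 fell and 0 rose on the 25S scale (medians −1.64 and −2.98). Among all tested mRNAs 20.9% fell and 39% rose, and 43.7% and 12.7% on the 25S scale. TIF11, the factor eIF1A that helps the small subunit scan, went from 458, 430 and 413 to 78.3, 33.1 and 72.9 mRNA TPM. TIF4631, a form of the scaffold eIF4G, went from 45.5, 44.8 and 33.5 to 2.40, 0 and 4.82. The 2 that rose were DED1, the helicase that unwinds leaders, at 68.2, 99.97 and 95.8 against 198, 269 and 244, and EAP1, a repressor that binds eIF4E. On the 25S scale DED1 stood at −0.07 and EAP1 at −0.47, neither past 5%.

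Of 12 tested elongation and termination factors 8 fell and 1 rose, beside 20.9% fallen and 39% risen over all tested mRNAs. YEF3, the fungal elongation factor that releases spent tRNA, went from 311, 279 and 304 to 14.1, 5.14 and 9.38 mRNA TPM, a difference of −4.92 ± 0.36 (SE, limma adjusted p = 0.000115). EFB1, which recharges elongation factor 1A, rose from 308, 325 and 285 to 472, 628 and 813, with a difference of −0.48 and an adjusted p of 0.331 on the 25S scale. All 19 tested aminoacyl-tRNA synthetases, which load amino acids onto tRNAs, fell on both scales. DED81, for asparagine, fell most, from 81.9, 106 and 99.7 to 1.80, 0 and 1.17, and DPS1, for aspartate, went from 157, 197 and 195 to 88.6, 68.2 and 117.

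Factors that sit on the ribosome divided. Of 17 tested chaperones, nascent-chain factors and hibernation factors, 12 fell and 3 rose. SSB1, an Hsp70 that binds chains as they leave the ribosome, went from 252, 250 and 273 mRNA TPM to 0, 1.51 and 2.89, and the sum of SSB1 and its near-identical SSB2 from 521, 539 and 534 to 3.70, 2.72 and 5.19. STM1, which clamps idle ribosomes, went from 745, 769 and 694 to 50.4, 34.2 and 50.1, a difference of −4.02 ± 0.23 (SE, limma adjusted p = 5.80e-05). LSO1, a small protein related to the idle-ribosome factor Lso2, was listed at 0 in each 30 °C library and stood at 2295, 1309 and 1898 at 42 °C. LSO2 itself stood at 631, 509 and 456 against 972, 359 and 653, which overlap (adjusted p = 0.653). MBF1, known for preventing frameshifts on collided ribosomes, rose from 730, 412 and 337 to 6576, 8444 and 5874. LSO1 and MBF1 rose on both scales. The third riser, GIR2, stood at −0.43 on the 25S scale.

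Chaperone mRNAs were among the largest gains. Of 30 tested cytosolic chaperones and co-chaperones, 27 rose and 1 fell on the mRNA scale and 22 rose and 2 fell on the 25S scale, with medians of 3.98 and 2.49. Their summed share of mRNA TPM was 0.25, 0.24 and 0.22% at 30 °C and 6.502, 8.98 and 8.14% at 42 °C. HSP26, whose small chaperone oligomers hold unfolding proteins, went from 2.25, 1.91 and 10.3 mRNA TPM to 16713, 27184 and 23104, a difference of 12.17 ± 0.55 (SE, limma adjusted p = 2.98e-05). The disaggregase HSP104 went from 34.5, 29.1 and 20.6 to 4706, 6132 and 6116 (7.62 ± 0.26, limma adjusted p = 1.13e-05). The inducible Hsp70 SSA4 went from 4.50, 2.22 and 1.11 to 4220, 6385 and 5305. In each of these the groups are separated by orders of magnitude.

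Near-identical chaperone genes were also summed, a choice made after the values were seen. SSA3 and SSA4 together stood at 5.66, 5.63 and 2.00 mRNA TPM at 30 °C and at 6110, 8175 and 6940 at 42 °C. The constitutive Hsp70s SSA1 and SSA2 together went from 378, 398 and 292 to 4448, 5264 and 5745. The Hsp90 genes HSP82 and HSC82 together went from 480, 476 and 509 to 9825, 10869 and 9854. CPR6, an Hsp90 co-chaperone, rose from 98.0, 82.5 and 96.7 to 6876, 7906 and 7906. SNL1, a membrane-bound exchange factor for Hsp70, was the one that fell, from 146, 120 and 107 to 30.9, 61.0 and 59.7 (−1.33 ± 0.33, limma adjusted p = 0.0133).

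Most tested folding factors of the organelles rose on the mRNA scale. Of 8 tested mitochondrial chaperones 6 rose and 1 fell, and on the 25S scale 4 rose and 1 fell. HSP78, the mitochondrial disaggregase, went from 32.7, 24.6 and 17.6 mRNA TPM to 2027, 3361 and 3486. HSP60, the matrix chaperonin, was more abundant to begin with and went from 432, 506 and 419 to 2877, 2795 and 2856. MGE1, which exchanges nucleotide on the matrix Hsp70, fell from 155, 141 and 108 to 61.9, 63.7 and 92.2. Of 11 tested folding factors of the endoplasmic reticulum 8 rose and 0 fell, with 4 and 1 on the 25S scale. For both lists the shares of all tested mRNAs are 39% risen and 20.9% fallen, and 12.7% and 43.7% on the 25S scale. KAR2, its Hsp70, went from 12.9, 9.003 and 8.48 to 519, 376 and 358.

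General stress genes rose on both scales. Of 39 tested, 37 rose and 0 fell on the mRNA scale and 33 rose and 2 fell on the 25S scale, with medians of 4.56 and 3.37. Their share of mRNA TPM went from 1.24, 1.71 and 1.51% to 21.7, 26.6 and 19.9%. HSP12, a small membrane-protecting protein, stood at 664, 3122 and 4941 mRNA TPM at 30 °C and at 53736, 58177 and 43151 at 42 °C. Its 30 °C libraries spread widely, with library 1 the lowest, and the difference was 4.56 ± 0.73 (SE, limma adjusted p = 0.00219). STF2 went from 3578, 3636 and 1938 to 51824, 74956 and 48315. HSP30, a membrane protein that restrains the proton pump Pma1, was at 0, 0.411 and 0 and went to 2153, 2239 and 1541, while PMA1 itself stood at 191, 261 and 253 against 171, 250 and 399 (adjusted p = 0.736). TMA10, a ribosome-associated protein related to STF2, rose from 3366, 4142 and 3445 to 10722, 22832 and 14021, with a difference of 0.54 and an adjusted p of 0.323 on the 25S scale.

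The mRNAs with the largest rise by the naming rule were YER053C-A, HSP26, CPP3, LSO1, HSP30, SSA4, SSA3 and SPI1. YER053C-A, on chromosome V from 260933 to 261046 of build R64, was listed at 0 in each 30 °C library and stood at 8656, 10471 and 3986 mRNA TPM at 42 °C. CPP3, on chromosome IV from 521314 to 521469, was likewise at 0 and stood at 4249, 3141 and 1708. The genes span 114 and 156 nt from start to stop codon, and the TPM of such transcripts depends strongly on the effective length used in the quantification. SPI1, a cell wall protein of stressed cells, was at 0 and stood at 443, 859 and 572.

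CUP1-2, one of the tandem copper metallothionein genes, had the highest mean level of the pool at 42 °C, at 109170, 56546 and 77251 mRNA TPM against 6282, 3081 and 4307 at 30 °C, a difference of 4.16 ± 0.38 (SE, limma adjusted p = 0.000252). In the 42 °C library 2 it lay below STF2 and HSP12. Of 28 tested antioxidant and metal defence genes 18 rose and 2 fell on the mRNA scale, and 9 rose and 9 fell on the 25S scale. The shares over all tested mRNAs were 39% risen and 20.9% fallen, and 12.7% and 43.7% on the 25S scale. GRX1, a glutaredoxin, rose from 415, 330 and 233 to 3641, 2838 and 2881. The 2 that fell were GRX4, a glutaredoxin that reports iron, from 51.8, 57.4 and 59.2 to 37.6, 20.9 and 13.6, and GSH2, the second enzyme of glutathione synthesis. Of 14 tested trehalose and glycogen genes 13 rose and 0 fell, with 7 and 1 on the 25S scale. TPS1, which makes the trehalose precursor, rose from 107, 94.1 and 90.3 to 1804, 1640 and 1284, and NTH1, which breaks trehalose down, rose too, from 6.47, 8.59 and 5.36 to 151, 151 and 125.

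The proteasome list was uniform on the mRNA scale and not on the other. All 35 tested members rose, with a median of 1.89 and differences between 1.13 and 4.50, but on the 25S scale 7 of 35 rose and 28 did not pass, with a median of 0.39. Without both number 1 libraries 33 rose on the mRNA scale and 2 on the 25S scale. RPN4, the transcription factor that drives proteasome genes, rose most, from 8.43, 7.41 and 4.36 mRNA TPM to 147, 201 and 163 (4.50 ± 0.31, limma adjusted p = 9.11e-05). SEM1, a small subunit of the lid, was the most abundant, at 1094, 1119 and 1054 against 5233, 7791 and 10515. In the ubiquitin system 13 of 16 tested rose and 0 fell, with 4 and 2 on the 25S scale. Beside both lists, 39% of all tested mRNAs rose and 20.9% fell, and 12.7% and 43.7% on the 25S scale. The polyubiquitin gene UBI4 stood at 62.9, 46.0 and 53.0 against 1788, 1744 and 1774, rising on both scales.

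**Figure D4:**
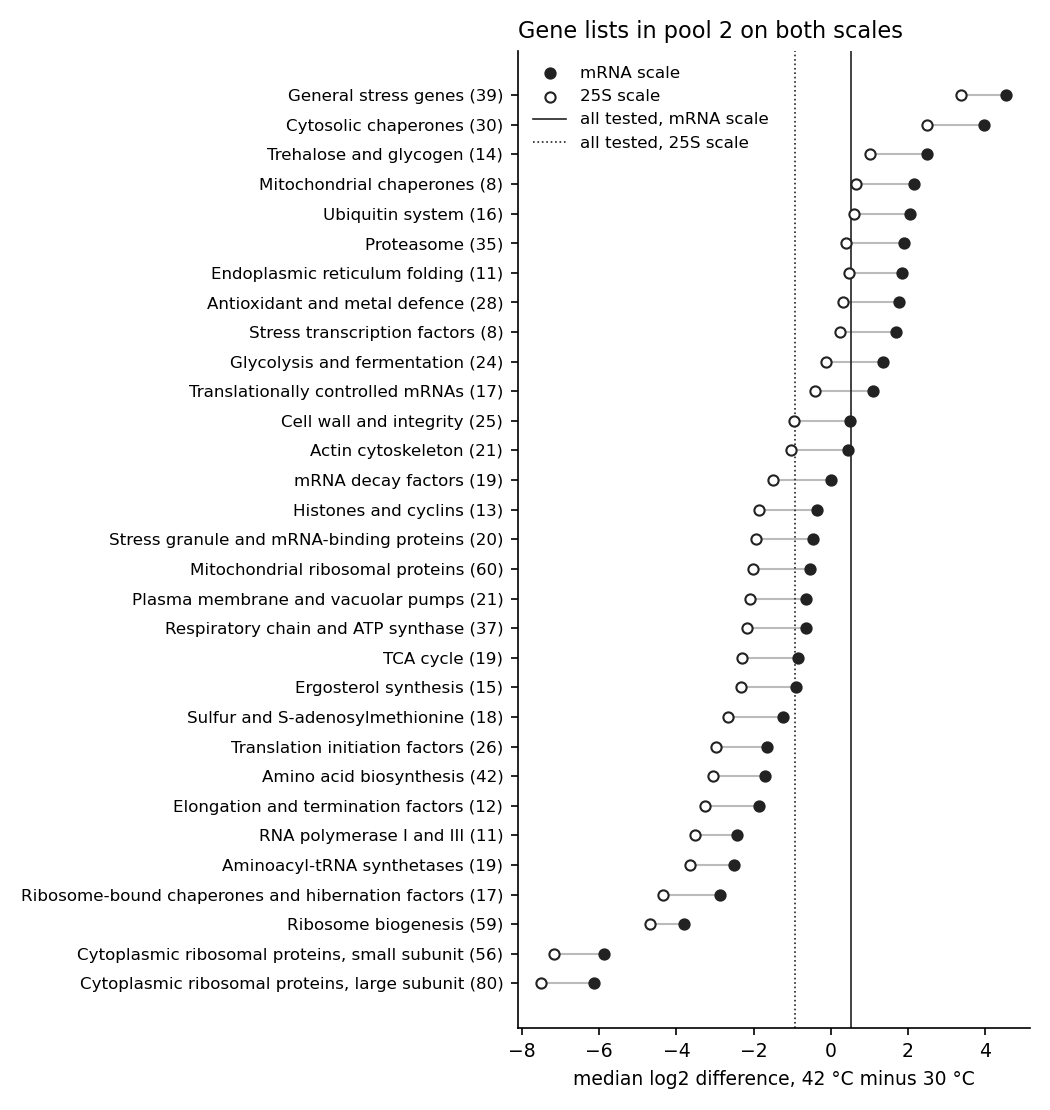
Median log2 difference in pool 2, 42 °C minus 30 °C, of gene lists with 8 or more tested members (number in brackets), filled on the mRNA scale and open on the 25S scale, with vertical lines at the medians of all tested mRNAs, 0.52 and −0.91. The general stress genes (4.56 and 3.37) and the ribosomal proteins of the large subunit (−6.12 and −7.51) lie at the ends.

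Most tested genes of sugar breakdown rose on the mRNA scale, and both hexokinases on the list fell. Of 24 tested genes of glycolysis and fermentation 18 rose and 2 fell on the mRNA scale and 5 rose and 3 fell on the 25S scale, with medians of 1.37 and −0.13. Among all tested mRNAs 39% rose and 20.9% fell, and 12.7% and 43.7% on the 25S scale. TDH3, the main glyceraldehyde-3-phosphate dehydrogenase, went from 1613, 1588 and 1490 mRNA TPM to 7290, 9497 and 8958 (2.45 ± 0.21, limma adjusted p = 0.000191), and was not past 5% on the 25S scale (0.94, adjusted p = 0.0565). Its stress-linked paralog TDH1 went from 35.4, 9.68 and 2.82 to 867, 1260 and 761 and rose on both scales. The 2 that fell were the hexokinases HXK1, from 257, 161 and 114 to 74.5, 42.2 and 53.7, and HXK2, from 199.9, 215 and 166 to 21.98, 45.8 and 40.7. HXT7, a high-affinity hexose transporter, stood at 245, 247 and 250 and was listed at 0 in each 42 °C library. The sum with its near-identical HXT6 went from 273, 271 and 257 to 2.21, 5.45 and 12.8. HXT5, a transporter of slow-growing and stressed cells, rose from 0.342, 0.850 and 0.376 to 120.02, 71.1 and 51.9.

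Respiratory mRNAs held overlapping shares of the pool at both temperatures, while isoform pairs moved in opposite directions. The 39 listed nuclear genes of the respiratory chain and ATP synthase summed to 7.86, 10.2 and 9.45% of mRNA TPM at 30 °C and to 6.98, 8.22 and 9.06% at 42 °C, which overlap (exact permutation p = 0.3). Of 37 tested, 5 rose and 12 fell on the mRNA scale and 1 rose and 31 fell on the 25S scale. The shares of all tested mRNAs were 39% risen and 20.9% fallen, and 12.7% and 43.7% on the 25S scale. CYC1, the main cytochrome c, fell from 120, 206 and 214 to 0, 8.26 and 8.16 mRNA TPM (−5.32 ± 0.90, limma adjusted p = 0.00278). CYC7, its isoform of low oxygen and stress, rose from 61.4, 41.8 and 7.02 to 1232, 1233 and 1708 (5.63 ± 0.75, limma adjusted p = 0.00110). The cytochrome oxidase subunit COX5A fell from 189, 285 and 274 to 132, 71.0 and 141, and its low-oxygen isoform COX5B went from 71.0, 11.2 and 11.6 to 604, 127 and 254. For COX5B the number 1 library was the highest at both temperatures, and the 25S scale gave an adjusted p of 0.0610. COX26 passed on the mRNA scale (adjusted p = 0.0493) with 30 °C values of 3829, 213 and 144 against 9443, 3878 and 4175, so library 1 at 30 °C nearly reached the heat group. COX9 and ATP19, the most abundant of the list, overlapped between temperatures. In the TCA cycle 7 of 19 tested fell and 1 rose, with 16 and 1 on the 25S scale, beside 20.9 and 43.7% fallen over all tested mRNAs. The riser on the mRNA scale was CIT2, a peroxisomal citrate synthase, at 12.1, 13.7 and 5.82 against 465, 263 and 394.

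Of 8 tested stress transcription factors (of 23 in the list) 5 rose and 2 fell. HSF1, the heat shock factor, went from 2.31, 3.74 and 3.27 mRNA TPM to 18.99, 13.7 and 32.1 and passed on the mRNA scale only (25S scale 1.09, adjusted p = 0.0785). GCN4, whose upstream reading frames hold back its translation in fed cells, fell from 63.2, 50.6 and 42.6 to 16.7, 7.30 and 10.4 (−2.14 ± 0.36, limma adjusted p = 0.00272). HAP4, the activator of respiration genes, also fell, from 24.4, 28.8 and 20.4 to 7.45, 15.4 and 13.2. HAC1, whose mRNA is stalled by its own intron until the unfolded protein response removes it, rose from 20.7, 19.6 and 12.8 to 67.3, 44.4 and 42.2, with a difference of 0.02 on the 25S scale. Of 17 tested mRNAs under translational control 9 rose and 5 fell on the mRNA scale and 2 rose and 7 fell on the 25S scale. Over all tested mRNAs the shares were 39% risen and 20.9% fallen, and 12.7% and 43.7% on the 25S scale. Counts this small are not read as a property of either list. ATG41, an autophagy gene, had the largest change, from 11.7, 13.99 and 4.14 to 437, 1439 and 726.

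Of 20 tested stress granule and mRNA-binding proteins 6 rose and 6 fell, with 2 and 14 on the 25S scale. Over all tested mRNAs the shares were 39% risen and 20.9% fallen, and 12.7% and 43.7% on the 25S scale, and counts this small are not read as a property of the list. PAB1, the poly(A)-binding protein, fell from 28.1, 30.4 and 30.0 mRNA TPM to 7.30, 7.71 and 8.56 (−1.78 ± 0.24, limma adjusted p = 0.00117). RIE1, an RNA-binding protein, rose from 6.32, 4.81 and 5.27 to 163, 337 and 245, on both scales. Of 19 tested decay factors 5 rose and 3 fell, with 2 and 11 on the 25S scale, and EDC2, an activator of decapping, rose from 27.0, 15.3 and 10.3 to 364, 408 and 354.

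More of the tested biosynthetic mRNAs fell than rose. Of 42 tested amino acid biosynthesis genes 22 fell and 1 rose, with 36 and 0 on the 25S scale. The one that rose, BAT2, an aminotransferase of branched-chain amino acids, went from 38.4, 43.5 and 22.1 mRNA TPM to 148, 52.8 and 119, and on the 25S scale its difference was 0.04. Of 15 tested ergosterol genes 6 fell and 0 rose, with 13 and 0 on the 25S scale. Of 18 tested sulfur and S-adenosylmethionine genes 9 fell and 2 rose, with 14 and 0 on the 25S scale. Of 60 tested mitochondrial ribosomal proteins 9 fell and 0 rose, with 54 and 0 on the 25S scale, beside 20.9 and 43.7% fallen over all tested mRNAs. Their median of −0.54 stands beside −6.08 for the cytoplasmic ribosomal proteins, and their summed share was 1.28, 1.39 and 1.36% at 30 °C and 1.06, 0.78 and 1.03% at 42 °C. Outside the lists, URA1, an enzyme of pyrimidine synthesis, went from 212, 260 and 220 to 0, 3.25 and 3.21, and ACC1, the first enzyme of fatty acid synthesis, from 78.1, 192 and 185 to 6.71, 4.03 and 11.5, both named after their values were seen.

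Of 25 tested cell wall genes 11 rose and 8 fell, with 8 and 10 on the 25S scale. Among all tested mRNAs 39% rose and 20.9% fell, and 12.7% and 43.7% on the 25S scale. PIR3, a wall protein cross-linked under stress, was at 0, 1.91 and 0 mRNA TPM and went to 348, 125 and 352. CWP2, a mannoprotein of growing cells, fell from 1927, 1808 and 1425 to 625, 667 and 854, and TOS6 went from 22.9, 22.6 and 25.1 to 0 in each 42 °C library. PMP1 and PMP3, tiny membrane proteolipids, rose to 10623, 12652 and 11103 and to 6689, 8144 and 14804 from 5226, 6124 and 6738 and from 2071, 3282 and 2906, and on the 25S scale they stood at −0.58 and 0.27, neither past 5%. ACT1, the actin gene, stood at 132, 159 and 144 against 151, 121 and 142 (−0.07 ± 0.21, limma adjusted p = 0.774), and on the 25S scale it fell by 1.57. Of 21 tested actin cytoskeleton genes 7 rose and 0 fell on the mRNA scale, and 0 rose and 8 fell on the 25S scale, where 12.7% of all tested mRNAs rose and 43.7% fell.

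The disome pool was then set against its neighbours in the gradient, the monosome pool (pool 1) and the trisome pool (pool 3), with pools compared within each of the 6 gradients. For all mRNA per 25S rRNA, the heat difference was −2.20 in pool 1, −1.51 in pool 2 and −0.45 in pool 3. Without ribosomal protein mRNAs it was −0.73, −0.12 and 0.79, so the remaining mRNA was lower per 25S rRNA after heat in the monosome pool, within the replicate spread in the disome pool and higher in the trisome pool. The difference between pool 2 and pool 1 in this measure was 0.61 (pooled SD 0.25) and that between pool 3 and pool 2 was 0.92 (pooled SD 0.27). In both, the 3 heated gradients against the 3 others gave an exact permutation p = 0.1, the smallest possible.

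**Figure D5:**
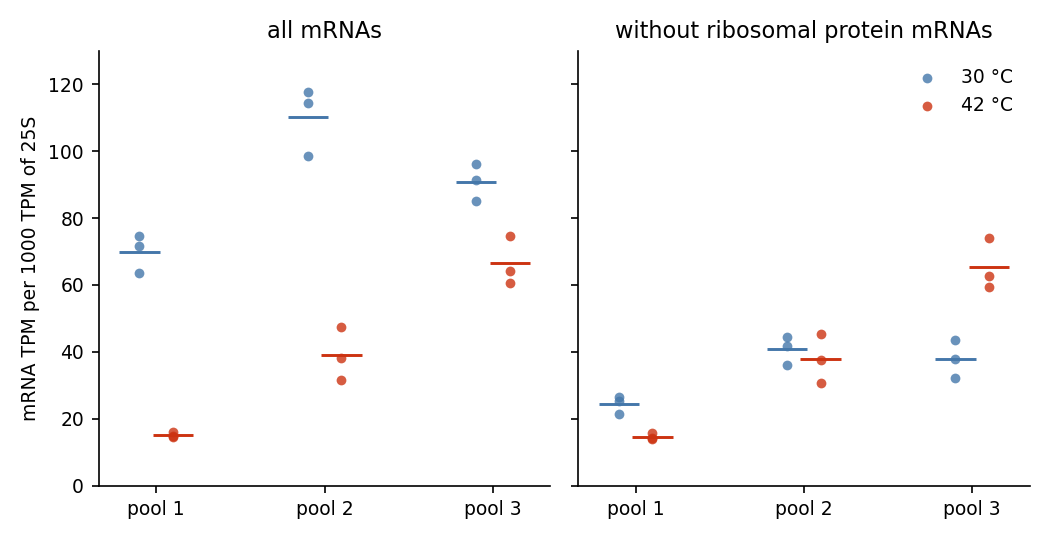
mRNA TPM per 1000 TPM of 25S rRNA (vertical axis) in pools 1 to 3, for all mRNAs (left) and without ribosomal protein mRNAs (right), 1 point per library and a line at the mean, blue for 30 °C and red for 42 °C. On the right the temperatures are apart in pools 1 and 3, in opposite directions, and overlap in pool 2.

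No single mRNA had a heat difference in the disome pool that passed 5% against either neighbour. On the mRNA scale limma called 0 of 2710 (0% higher, 0% lower) for pool 2 against pool 1, with 235 at an unadjusted p under 0.05 and a lowest adjusted p of 0.543, and 0 (0% and 0%) for pool 3 against pool 2, with 789 unadjusted and a lowest adjusted p of 0.103. A fit to all 24 libraries with each gradient as a block, added later, called 4 for pool 2 against pool 1, MRA1 higher and NUG1, AIM2 and DED81 lower, and 0 for pool 3 against pool 2. Median differences over all tested mRNAs were −0.26 and −0.69, and 0.06 and 0.06 after median scaling. The ribosomal protein mRNAs had median heat differences of −5.93, −6.08 and −6.59 in pools 1, 2 and 3, the cytosolic chaperones 4.38, 3.98 and 3.45, and the general stress genes 5.05, 4.56 and 4.28. These misses do not show that the pools respond alike.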

How the data were processed

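RNA of gradient pools was sequenced with a stranded SMART-Seq kit, per the labels' protocols. The submitters' processing notes name Trim Galore 0.6.5, Salmon 1.9.0 and build R64, without their settings. The authors deposited TPM for 6087 entries (5959 mRNAs, 5 rRNAs, 5 spike-ins and others), and columns sum to 999968 to 999999. All 6082 gene IDs matched RefSeq's table for R64, which gave symbols and gene spans, introns included; 0 value columns lacked a sample. TPM keeps no depth, so precision was read from replicates. TPM was rescaled to the mRNA sum or divided by 25S rRNA times 1 constant, and limma 3.58.1 under R 4.3.3, tested on simulated data, fitted log2(value + 1) with a mean-variance trend. In that simulation 14.9, 55.2 and 89.4% of added 2-, 4- and 8-fold changes passed 5%. A miss at 5% therefore does not show that an mRNA was unchanged. Pools were compared by fitting the difference between pools within each gradient. Single values were compared by exact permutation. Tables used Python 3.11.15, pandas 2.3.3, numpy 2.4.6 and scipy 1.17.1, figures matplotlib 3.10.9. Where each library of a temperature lists 0, no fold is given. The 25S scale and the exact tests use the 3 libraries of a temperature as replicates, whose spread may be technical.

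Members, gene lists and tests were chosen with earlier results of these data known. Genes named are the 8 largest rises and falls past 5% without overlap and with at least 20 mRNA TPM in the higher group, the 2 most abundant and 2 most changed of each list, called members that went against their list, and some single genes (STM1, ACT1 and HSP104 among them); not all are described. The text says where another gene was named after its values were seen. Alternatives covered pseudocounts, filters, scalings, trend, a minimum change, blocks and left-out libraries. Leaving out both number 1 libraries, spike-in scaling with a block, genes spanning at least 600 nt, scaling without ribosomal protein mRNAs and the fit with gradients as blocks were chosen after seeing the data.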

Additional observations from a re-analysis of the deposited data

How the results depend on the processing

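Counts of called mRNAs on the mRNA scale (1623; 1057 higher, 566 lower) fell to 797 (489 and 308) with a filter of 50 mRNA TPM, which tests 1137 mRNAs, to 918 (566 and 352) for a change of at least 1, and to 291 (56 and 235) with spike-in scaling, where both number 1 libraries stand apart. Spike-in scaling with the replicate number as a block gave 347 higher and 901 lower, TPM as deposited 521 and 1088, and scaling without ribosomal protein mRNAs 411 and 1171. The last leaves out of the sum a class with a mean share of 63.0% at 30 °C and 3.25% at 42 °C. Its median difference was −0.82, against 0.52 in the main fit. The cause of the other shifts was not tested. No filter gave 2295 called of 5633 tested, and genes spanning at least 600 nt, introns included, 1344. Leaving out 1 library gave 1342 to 1596 on the mRNA scale (897 to 1049 higher, 436 to 594 lower) and 1229 to 1563 on the 25S scale (275 to 336 higher, 949 to 1274 lower); leaving out both number 1 libraries gave 1388 and 1191. The mRNA per 25S rRNA difference of −1.51 moved to −1.15 over all rRNA and to −0.12 without ribosomal protein mRNAs, and ran from −1.66 to −1.37 with 1 library left out. The fit with gradients as blocks called 4 mRNAs for pool 2 against pool 1, and 1 (MRA1) with median scaling; other alternatives for both pool comparisons called 0.

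The main fits did not treat libraries of one number as pairs. Residual correlations at the same number were 0.056, 0.096 and 0.090, small but each above those at different numbers, −0.123 to 0.040. Spike-in TPM and LEU2 also ranked the numbers in the same order at both temperatures. Whether libraries of one number share a source was not tested. The replicate block gave 1526 calls on the mRNA scale and 1393 on the 25S scale, 0 and 0 for the pool comparisons, and p = 0.25 by exact sign flips for the mRNA per 25S rRNA difference of −1.51, the smallest p that 3 pairs allow.

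Small rises turned with the scaling. With TPM as deposited, AIM2 was at −0.46, EAP1 −0.026, EFB1 −0.080, GIR2 −0.037, PMP1 −0.19, RRN10 −0.023 and RRN9 −0.028. With spike-in scaling, with or without the block, EAP1 was at −0.18, EFB1 −0.12, GIR2 −0.072, PMP1 −0.22, RRN10 −0.092 and RRN9 −0.16. Scaled without ribosomal protein mRNAs, AIM2 was at −1.04, EAP1 −0.37, EFB1 −0.36, GIR2 −0.31, LSO2 −1.17, PMA1 −1.24, PMP1 −0.46, RRN10 −0.31 and RRN9 −0.39. Unknown depth, 3 libraries a side, division of reads between paralogs and the effective length of short transcripts limit the single values.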
